A study of Mus musculus with 4 samples.

Results

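The genes described here are 40 that act in the G2 phase of the cell cycle and in mitosis, chosen by symbol from the 31748 gene symbols of the count tables, and all 40 were found. They were measured by RNA-seq in 4 libraries of T cells labelled CD4+ from mouse spleen. Of these, 2 libraries carried the genotype TEaWT (called WT here) and 2 the genotype TEaMthfd2 KO (called KO). Both genotypes include TEa, a transgenic T cell receptor that recognises a donor class II peptide, so WT is not a strain without a transgene. Mthfd2 encodes a mitochondrial enzyme of folate metabolism, and the labels do not say in which cells or by which allele it was deleted. The T cells came from mice 8 weeks old, were enriched by positive magnetic selection, and shared a culture of 3 days with antigen-presenting cells (APCs), taken from F1 (BALB/c x C57BL/6) spleens and treated with mitomycin. All 4 libraries therefore share the transgene, the APCs and the time. By the labels, the comparison asks how alloreactive T cells differ when Mthfd2 is missing. No label says whether replicates are different mice or cultures, so p-values reflect only how far these libraries lie apart, and part of that may be technical.

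A cell enters mitosis when CDK1, bound first to cyclin A and then to cyclin B, is switched on by CDC25 phosphatases and polo-like kinase. The chromosomes are then attached to the spindle through kinetochores, a checkpoint holds the anaphase-promoting complex back until all are attached, and the midzone between the separated chromosomes directs cytokinesis. Most of the genes concerned are transcribed in G2 and are silent in resting cells, so in T cells they are widely read as marks of division after activation. In RNA from a whole culture, fewer dividing cells and less RNA per dividing cell cannot be told apart.

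Libraries held between 14191401 and 15955863 counts, and levels are given as CPM, the count of a gene relative to the library total after TMM scaling, which assumes that most genes are level. Mthfd2 itself was not low in the libraries labelled KO. Its CPM was 279.8 in WT replicate 1, 280.5 in WT replicate 2, 222 in KO replicate 1 and 252 in KO replicate 2, a log2 fold change of -0.24 ± 0.14 (standard error, SE) with an edgeR adjusted p of 0.324. Which part of the gene was deleted is not given, so counts over the whole gene check the label only in part. Cd8a stood above Cd4 in every library, at 3.43 to 4.43 times its CPM per kilobase of exon, the reverse of what the CD4+ label leads one to look for. The first principal component (69.0% of the variance) placed WT replicate 1 at -65.1, WT replicate 2 at -19.6, KO replicate 1 at 43.8 and KO replicate 2 at 40.9. The WT libraries thus stood apart from each other, and every result below is given per library.

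The 40 genes were lowest in WT replicate 1, several-fold higher in WT replicate 2 and highest in both KO libraries. Together they held 0.108% of all counts in WT replicate 1, 0.560% in WT replicate 2, 0.851% in KO replicate 1 and 0.851% in KO replicate 2. The median over the 40 was 16.3 CPM in WT replicate 1, 96.1 in WT replicate 2, 151 in KO replicate 1 and 156 in KO replicate 2. Both KO libraries lay above both WT libraries for 40 of 40 genes, against 29.8% of the 12752 genes tested. The gap within WT was nonetheless the larger one for each of the 40. WT replicate 2 exceeded WT replicate 1 by 2.67-fold (Mad2l1) to 10.4-fold (Plk1), with a median of 5.39 beside 0.997 over all genes tested. Such a gap of over 2-fold was seen for 40 of 40 genes and for 6.09% of all genes. The mean of the KO libraries exceeded WT replicate 2 by 1.05-fold (Cdk1) to 2.83-fold (Cenpa), with a median of 1.53 beside 1.00 over all genes. The KO libraries differed from each other by 1.32-fold at most (Cdc20).

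**Figure D1:**
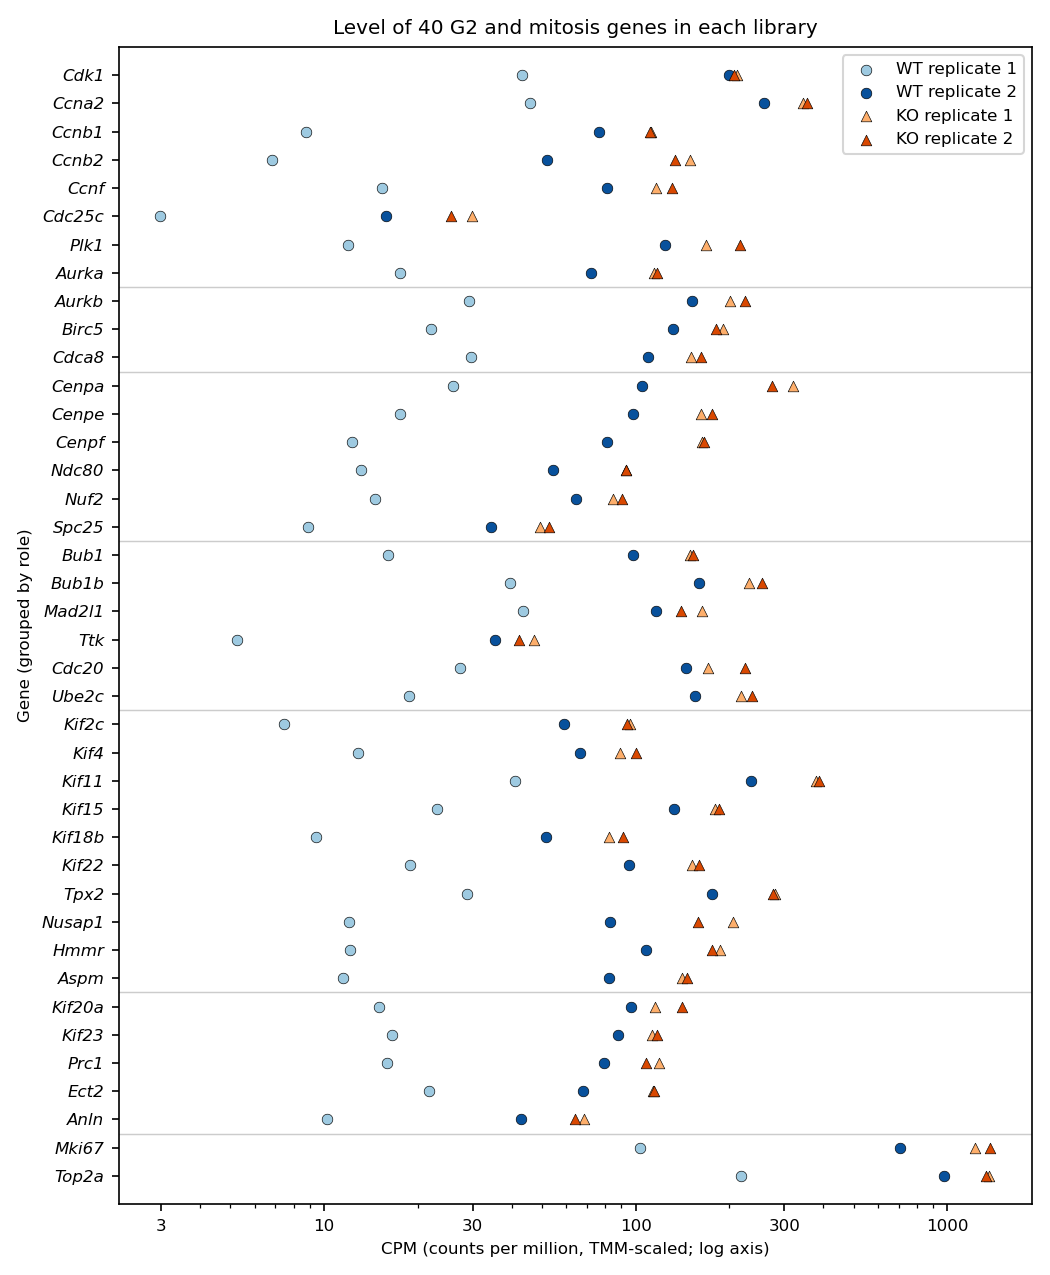
CPM of each of the 40 genes (rows, grouped by role) in the 4 libraries, on a log axis. Circles are WT replicates 1 (light) and 2 (dark), and triangles are KO replicates 1 (light) and 2 (dark). In every row WT replicate 1 lies far to the left and both KO libraries lie to the right of WT replicate 2.

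No member passed the test of KO against WT. All 40 passed the filter on low counts, and edgeR's quasi-likelihood test with Benjamini-Hochberg adjustment over all genes called 0 of 40 higher and 0 of 40 lower at an adjusted p under 0.05, while it called 2.39% of all genes higher and 1.56% lower. Before adjustment, 8 of the 40 were higher at a p under 0.05, against 12.8% of all genes. DESeq2 called 0 of 40 higher (6.7% of all genes), and 2 of 40 before adjustment (12.4%). Limma-voom called 1 higher, Cenpa (2.95% of all genes), and edgeR without the filter on low counts called 5 (4.02% of all genes). Before adjustment, 39 of the 40 were higher at a p under 0.05 with limma-voom, and 39 without the filter. The share of all genes was not counted for these. The log2 fold changes of KO over WT were positive for all 40, from 0.78 (Cdk1) to 2.27 (Ccnb2), with a median of 1.37 beside -0.0026 over all genes tested, and 4.53% of all genes reached that median. Their SEs had a median of 0.65, since the spread between the WT libraries enters each of them. The lowest adjusted p was 0.0787, for Cenpa, and the highest 0.447, for Cdk1.

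The number of calls rested on which WT library was in the fit. Without WT replicate 1, edgeR called 6 of the 40 higher (2.21% of all genes), namely Ccnb2, Cenpa, Cenpf, Nusap1, Aspm and Mki67, and the median log2 fold change was 0.62. Without WT replicate 2, it called 40 of 40 higher (10.7% of all genes) with a median of 3.06. In both fits the lone WT library is assumed to vary as little as the KO pair does. Without KO replicate 1 or without KO replicate 2, edgeR called 0 of 40 and 0% of all genes, and 1 and 1 of the 40 had an unadjusted p under 0.05.

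**Figure D2:**
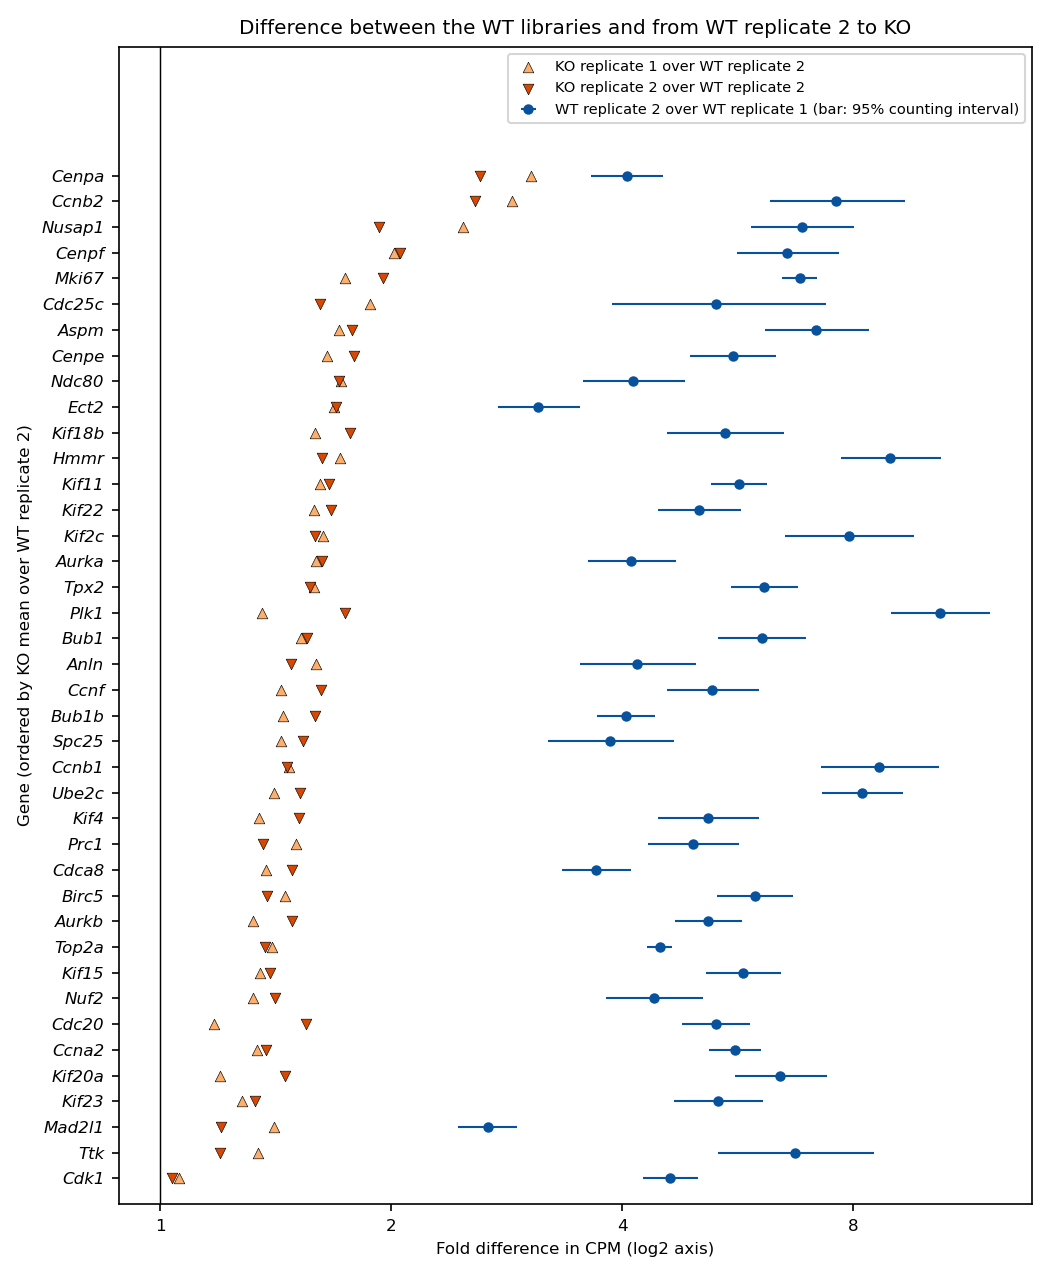
Fold differences in CPM for each of the 40 genes on a log2 axis, ordered by the ratio of the KO mean to WT replicate 2. Blue points with 95% counting intervals are WT replicate 2 over WT replicate 1, and triangles are each KO library over WT replicate 2. The blue point lies to the right of both triangles in all 40 rows.

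The kinase CDK1, cyclins of the A, B and F types and the enzymes that release CDK1 activity made up 8 of the genes. Cdk1 (chr10:69335146-69352938 in GRCm38) was at 43.2 CPM in WT replicate 1, 199.5 in WT replicate 2, 211 in KO replicate 1 and 207 in KO replicate 2. Only WT replicate 1 was low, and the KO libraries lay just above WT replicate 2. The log2 fold change was 0.78 ± 0.59 (SE, n = 2 per group; adjusted p = 0.447), and 0.07 ± 0.17 without WT replicate 1 (adjusted p = 0.859). Ccna2, cyclin A2 (chr3:36564865-36572150), had the highest mean CPM of the 8, with 45.9 and 258 CPM in WT replicates 1 and 2 and 345 and 355 in KO replicates 1 and 2. Its groups did not overlap, and its log2 fold change was 1.20 ± 0.66 (adjusted p = 0.299). Exons of Exosc9 overlap 12.5% of its exon length on the opposite strand.

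The B-type cyclins, which drive entry into mitosis, were at different distances from WT replicate 2. Ccnb1 (chr13:100778650-100786570) was at 8.80 CPM in WT replicate 1, 76.0 in WT replicate 2, 112 in KO replicate 1 and 111 in KO replicate 2. Ccnb2 (chr9:70407692-70421547) was at 6.84 CPM in WT replicate 1, 52.1 in WT replicate 2, 149.9 in KO replicate 1 and 134 in KO replicate 2. Both had non-overlapping groups, with log2 fold changes of 1.40 ± 0.80 for Ccnb1 (adjusted p = 0.314) and 2.27 ± 0.77 for Ccnb2 (adjusted p = 0.134). Without WT replicate 1 they were 0.56 ± 0.17 (adjusted p = 0.119) and 1.45 ± 0.18 (adjusted p = 0.0141). Ccnb1 is uncertain because a processed copy, Ccnb1-ps, has a row of its own with 208, 788, 1151 and 1234 counts in the same order of libraries. Summed with it, Ccnb1 was 6.01-fold higher in WT replicate 2 than in WT replicate 1, and the KO mean was 1.52-fold above WT replicate 2. Named copies are also annotated for Ccnb2, Kif4 and Kif22. Kif4-ps and Kif22-ps had 0 counts in all 4 libraries, and Ccnb2-ps was not analysed here, so Ccnb2 is uncertain as well.

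Plk1, polo-like kinase 1 (chr7:122159439-122169873), had the widest gap within WT. It was at 12.0 CPM in WT replicate 1, 124 in WT replicate 2, 169 in KO replicate 1 and 216 in KO replicate 2, a log2 fold change of 1.5 ± 0.86 (adjusted p = 0.318). Its KO libraries also lay further apart than those of most members. Of the other 3, Aurka, the centrosomal kinase that activates PLK1, was at 17.5, 72.1, 115 and 117 CPM in WT replicates 1 and 2 and KO replicates 1 and 2. Ccnf, cyclin F, was at 15.4, 80.7, 116 and 131 CPM in that order. Cdc25c, the phosphatase that removes the inhibitory phosphates of CDK1, was the lowest of the 40 per kilobase in every library, with 49, 235, 422 and 358 counts.

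Many G2 and mitosis genes carry CHR letters, bound by the MuvB complexes, and CCAAT letters, bound by NF-Y, close to their start. The stretches upstream of the RefSeq start (GRCm38.p6) are shown for the CDK1 kinase, both B-type cyclins and Plk1, which all had WT replicate 1 as their lowest library and both KO libraries above WT replicate 2, each 5′ to 3′ on the strand of the gene with CHR and CCAAT letters on either strand in capitals. Bases that GENCODE places inside the gene were left out.
Cdk1 (chr10:69352939-69353162, minus strand): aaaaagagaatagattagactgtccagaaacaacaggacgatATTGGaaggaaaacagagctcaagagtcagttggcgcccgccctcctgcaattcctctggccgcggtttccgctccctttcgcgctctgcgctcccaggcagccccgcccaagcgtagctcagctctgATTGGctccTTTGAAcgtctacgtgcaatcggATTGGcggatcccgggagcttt
Ccnb1 (chr13:100786571-100786736, minus strand): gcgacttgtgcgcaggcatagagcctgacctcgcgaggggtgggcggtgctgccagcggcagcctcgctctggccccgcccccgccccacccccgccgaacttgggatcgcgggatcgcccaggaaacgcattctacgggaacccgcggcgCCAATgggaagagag
Ccnb2 (chr9:70421555-70421804, minus strand): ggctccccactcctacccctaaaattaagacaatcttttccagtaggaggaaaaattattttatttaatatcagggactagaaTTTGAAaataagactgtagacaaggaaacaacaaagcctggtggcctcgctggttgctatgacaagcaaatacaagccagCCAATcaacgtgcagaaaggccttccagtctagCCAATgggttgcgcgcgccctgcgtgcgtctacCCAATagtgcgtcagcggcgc
Plk1 (chr7:122159185-122159434, plus strand): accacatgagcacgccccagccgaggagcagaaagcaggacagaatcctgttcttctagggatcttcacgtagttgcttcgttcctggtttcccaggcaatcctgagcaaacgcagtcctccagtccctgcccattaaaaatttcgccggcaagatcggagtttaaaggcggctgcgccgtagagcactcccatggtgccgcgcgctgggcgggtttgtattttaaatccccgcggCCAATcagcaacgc
In the whole window of 250 bases before to 50 after the start, Cdk1 held 2 CHR and 3 CCAAT matches, Ccnb1 0 and 2, Ccnb2 2 and 3, and Plk1 1 and 1. The Plk1 CHR match began 31 bases after the start and so lies outside the stretch shown. Also outside the stretches shown are a CHR match of Cdk1 (first base at -15), a CCAAT match of Ccnb1 (-67) and a CHR match of Ccnb2 (5). The letters searched were TTTGAA and TTCGAA for CHR, and CCAAT, on both strands.

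Of the 40 genes, 35 had a window in the RefSeq table. CHR letters stood in 29 of the 35 (82.9%), against 14.2% of 9558 tested genes with a window and 19.4% of all 27025. At least 2 CCAAT matches stood in 21 of 35 (60%), against 15.8% of the tested genes. Both kinds were present in 25 of 35 (71.4%), against 6.29%. Of 41 CHR matches, 28 were centred within 50 bases of the start, and of 66 CCAAT matches 53 were centred in the 150 bases upstream. These are matches of letters and not measured binding.

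**Figure D3:**
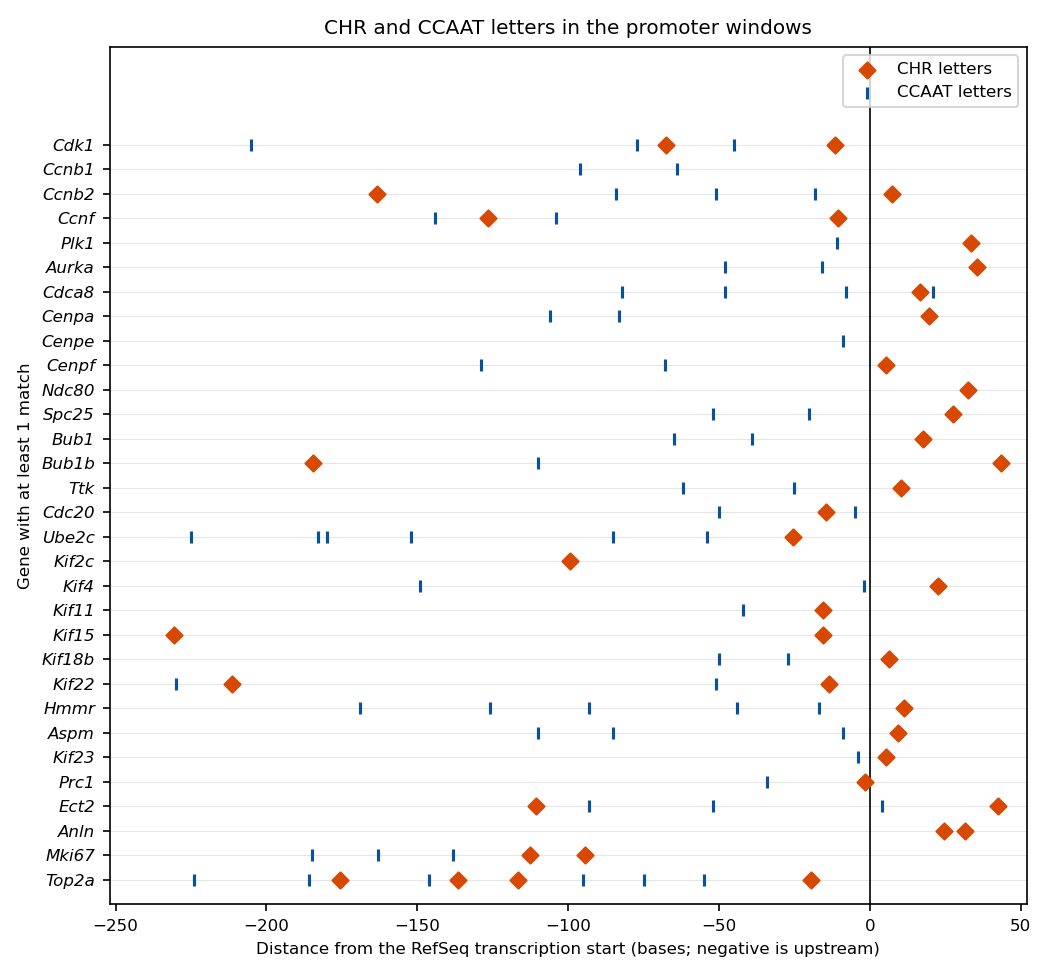
Positions of CHR (orange diamonds) and CCAAT (blue ticks) letters around the RefSeq start (vertical line at 0; x axis in bases, negative upstream) for the 31 genes with at least 1 match, 1 gene per row. CHR letters gather around the start and CCAAT letters upstream of it.

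Transcription factors and cofactors that regulate cell cycle genes were also measured in a list of 18. Some of them act through these letters and others through E2F sites. Of the 18, edgeR called 0, with 6 higher before adjustment (12.8% of all genes). DESeq2 called 1 higher, Rbl2 (6.7% of all genes). Foxm1, the factor that joins MuvB in G2 and raises many of the genes above, was at 18.3 CPM in WT replicate 1, 79.8 in WT replicate 2, 139 in KO replicate 1 and 137 in KO replicate 2. It had the same order of libraries as the 40, with a log2 fold change of 1.49 ± 0.58 (adjusted p = 0.172). Mybl2, the partner of MuvB in S phase, was at 26, 79.9, 68.0 and 84.9 CPM in that order, so its groups overlapped. E2f2, an activating E2F factor, was at 27.1, 91.3, 206 and 208 CPM, and passed the test when WT replicate 1 was left out (log2 fold change 1.18, adjusted p = 0.0208). The regulators of highest mean level, Rbbp4 and Tfdp1, had log2 fold changes of 0.19 ± 0.16 and -0.00 ± 0.25, and the median of the 18 was 0.36. The CCAAT-binding subunits Nfya, Nfyb and Nfyc had log2 fold changes between -0.16 and 0.51.

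The chromosome passenger complex corrects faulty spindle attachments and later guides cytokinesis. Its kinase Aurkb (chr11:69045647-69051664) was at 29.3 CPM in WT replicate 1, 152 in WT replicate 2, 200.1 in KO replicate 1 and 225 in KO replicate 2. WT replicate 1 was low and the KO libraries lay above both WT libraries, with a log2 fold change of 1.23 ± 0.64 (adjusted p = 0.273). Birc5, survivin, was at 22.1, 131, 191 and 181 CPM in that order of libraries, and Cdca8, borealin, at 29.6, 109, 150.3 and 162. The KO mean stood at 1.40 to 1.43 times WT replicate 2 for the 3 subunits.

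Centromere and kinetochore genes held the largest difference between KO and WT replicate 2. Cenpa, the histone H3 variant that marks centromeres (chr5:30666777-30674830), was at 25.9 CPM in WT replicate 1, 105 in WT replicate 2, 320.2 in KO replicate 1 and 275 in KO replicate 2. Both KO libraries lay 2.61-fold or more above the higher WT library. The log2 fold change was 2.18 ± 0.57 (adjusted p = 0.0787), and 1.51 ± 0.19 without WT replicate 1 (adjusted p = 0.0147). Cenpf, a large protein of the outer kinetochore, was at 12.3, 80.7, 163 and 166 CPM in WT replicates 1 and 2 and KO replicates 1 and 2. Its log2 fold change was 1.82 ± 0.72 (adjusted p = 0.176), and 1.03 ± 0.17 without WT replicate 1 (adjusted p = 0.0263). Cenpe, a kinetochore motor, was at 17.6, 98.2, 162 and 175 CPM in that order. For the 3 subunits of the NDC80 complex, which binds microtubules, the KO mean was 1.71-fold (Ndc80), 1.36-fold (Nuf2) and 1.49-fold (Spc25) above WT replicate 2.

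The spindle checkpoint holds back anaphase, and Cdc20 and Ube2c act with the anaphase-promoting complex once it is satisfied. Bub1b, which encodes the checkpoint protein BubR1 (chr2:118598211-118641591), had the highest mean CPM of these 6 genes. It was at 39.6 CPM in WT replicate 1, 160.1 in WT replicate 2, 231 in KO replicate 1 and 255 in KO replicate 2. The groups did not overlap, and the log2 fold change was 1.28 ± 0.55 (adjusted p = 0.207). Cdc20 (chr4:118432901-118437352) was at 27.4 CPM in WT replicate 1, 145 in WT replicate 2, 170.3 in KO replicate 1 and 224 in KO replicate 2, so KO replicate 1 lay nearer to WT replicate 2 than to KO replicate 2. Its log2 fold change was 1.20 ± 0.65 (adjusted p = 0.295). Ube2c, the E2 enzyme of the complex, was at 18.8, 155, 218 and 235 CPM in WT replicates 1 and 2 and KO replicates 1 and 2, and 22.8% of its exon length overlaps Tnnc2. Bub1, a checkpoint kinase, was at 16.1, 98.1, 149.6 and 152 CPM in that order, and Ttk, the kinase MPS1, at 5.25, 35.3, 47.4 and 42.2. Mad2l1, which encodes the inhibitor MAD2, showed the narrowest gap within WT of the 40, with 43.5, 116, 163 and 139 CPM. None of the 6 was called in any of the fits that kept both WT libraries.

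Spindle motors and microtubule proteins were the largest role, with 10 genes. Kif11, the motor that pushes spindle poles apart (chr19:37376403-37421859), had the highest mean CPM among them, with 41.2 in WT replicate 1, 234 in WT replicate 2, 378 in KO replicate 1 and 388 in KO replicate 2. The KO libraries lay close together and above both WT libraries, with a log2 fold change of 1.48 ± 0.67 (adjusted p = 0.224). Nusap1, which bundles spindle microtubules (chr2:119618298-119651244), was at 12.0, 82.6, 205 and 159 CPM in WT replicates 1 and 2 and KO replicates 1 and 2. Its log2 fold change was 1.94 ± 0.74 (adjusted p = 0.167), and 1.14 ± 0.21 without WT replicate 1 (adjusted p = 0.0330). Aspm, a protein of the spindle poles, was at 11.5, 82.3, 141 and 146 CPM in that order, and was called without WT replicate 1 (log2 fold change 0.81 ± 0.17, adjusted p = 0.0485). Tpx2, the activator of Aurora A on the spindle, was at 28.7, 176, 279 and 276 CPM, and Hmmr, a microtubule-binding protein of the poles, at 12.1, 108, 186 and 176. The other motors, Kif2c, Kif4, Kif15, Kif18b and Kif22, stood 5.05-fold to 7.90-fold higher in WT replicate 2 than in WT replicate 1. Their KO means stood 1.37-fold to 1.68-fold above WT replicate 2. Exons of Pdzd11 overlap 15.1% of the exon length of Kif4.

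Midzone and cytokinesis genes followed the same order of libraries, with KO means 1.3-fold to 1.69-fold above WT replicate 2. Kif20a, the motor that carries the passenger complex to the midzone, had the highest mean of the 5, at 15.0 CPM in WT replicate 1, 96.7 in WT replicate 2, 116 in KO replicate 1 and 140.4 in KO replicate 2. Its log2 fold change was 1.20 ± 0.71 (adjusted p = 0.331), its groups did not overlap, and 29.3% of its exon length overlaps Cdc23. Ect2, the exchange factor that switches on RhoA at the cleavage site, was at 21.7, 67.7, 114 and 115 CPM in WT replicates 1 and 2 and KO replicates 1 and 2, with a log2 fold change of 1.36 ± 0.46 (adjusted p = 0.136). Kif23, a motor of centralspindlin, was at 16.5, 88.1, 113 and 117 CPM in that order. Prc1, which crosslinks midzone microtubules, was at 16, 79.2, 119 and 108 CPM, and Anln, a scaffold of the contractile ring, at 10.3, 43.0, 68.5 and 63.7.

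Mki67 and Top2a, which act on the mitotic chromosome, took the largest shares of the counts of the 40. Mki67 encodes Ki-67, the antigen used to mark cycling cells (chr7:135689784-135716361), and was at 103 CPM in WT replicate 1, 704 in WT replicate 2, 1225 in KO replicate 1 and 1374 in KO replicate 2. Top2a encodes the topoisomerase that separates sister DNA (chr11:98992943-99024189), and was at 218 CPM in WT replicate 1, 974 in WT replicate 2, 1361 in KO replicate 1 and 1334 in KO replicate 2. Neither gene had overlapping groups. The log2 fold changes were 1.69 ± 0.74 for Mki67 (adjusted p = 0.212) and 1.18 ± 0.59 for Top2a (adjusted p = 0.260). Mki67 passed the test without WT replicate 1 (0.89 ± 0.19, adjusted p = 0.0496), while Top2a gave 0.47 ± 0.18 (adjusted p = 0.201). As a share of the summed CPM of the 40 genes, Mki67 went from 9.79% in WT replicate 1 to 12.7% in WT replicate 2 and 14.3% and 15.6% in the KO libraries. Top2a made up 20.6%, 17.5%, 15.9% and 15.2% in that order. Per kilobase of exon, Top2a was the highest of the 40 in all 4 libraries.

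**Figure D4:**
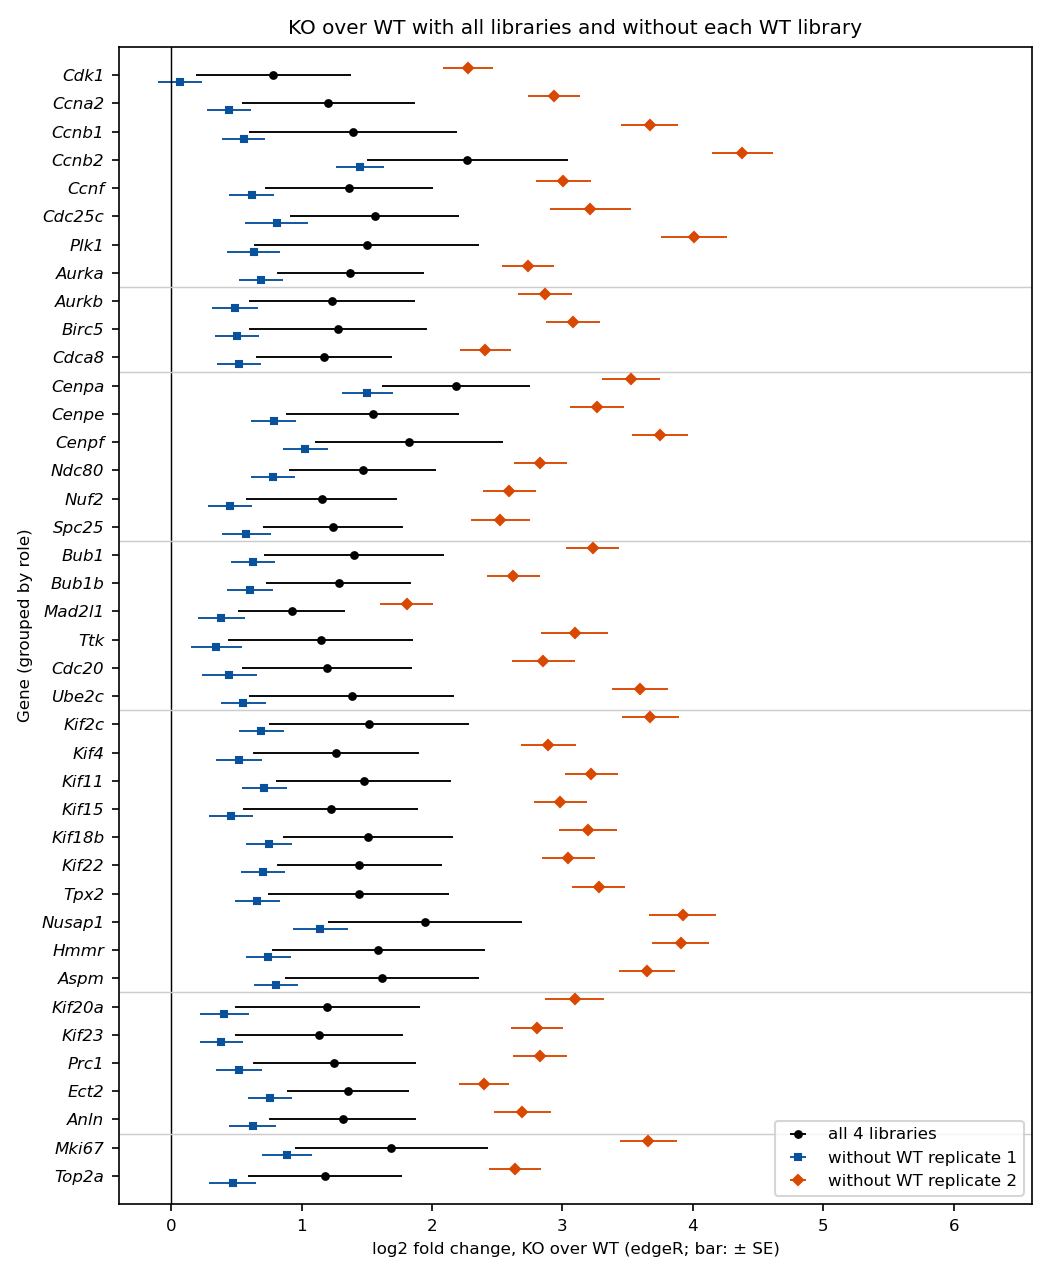
Log2 fold change of KO over WT from edgeR for the 40 genes, with SE bars, grouped by role. Black points use all 4 libraries, blue squares leave out WT replicate 1 and orange diamonds leave out WT replicate 2. Every point is positive, and the 3 fits of a gene stand apart in the order blue, black, orange.

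The distance between KO and WT replicate 2 thus varied between members, and the 4 genes over 2-fold were named after their values were seen: Cenpa (2.83), Ccnb2 (2.72), Nusap1 (2.20) and Cenpf (2.04). A KO mean over 2-fold above WT replicate 2 was seen for 7.04% of all genes, against these 4 of 40. Over 1.5-fold stood 22 of the 40, against 14.6% of all genes. At the other end of the order were Cdk1 (1.05), Ttk (1.27), Mad2l1 (1.3) and Kif23 (1.3). These ratios rest on 1 WT library and so have no replicate error on the WT side.

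The rest of the division machinery was compared with lists chosen by function. Of 55 other mitotic genes, edgeR called 0 (16 higher and 1 lower before adjustment) and DESeq2 called 9 higher and 1 lower. Over all genes tested, 12.8% were higher in edgeR before adjustment, and DESeq2 called 6.7% higher and 6.11% lower. Of the 55, 52 had a positive log2 fold change, and the median was 1.16. Those of highest mean CPM, Ckap5 and Bub3, had log2 fold changes of 0.79 ± 0.25 and 0.32 ± 0.18. Zwint (-0.64 ± 0.15, adjusted p = 0.0600), Pttg1 (-0.17 ± 0.20) and Cdc25a (-0.13 ± 0.21) had negative values and are named after these were seen. The median of the 55 was 0.49 without WT replicate 1 and 2.40 without WT replicate 2. All 8 condensin subunits, which compact mitotic chromosomes, lay higher in both KO libraries than in both WT libraries (29.8% of all genes). However, edgeR called 0 of 8 (5 higher before adjustment, 12.8% of all genes) and DESeq2 called 2 higher (6.7%). Their median log2 fold change was 0.94. Smc4 was at 261, 478, 603 and 721 CPM and Ncapd2 at 99.7, 375, 593 and 645 in WT replicates 1 and 2 and KO replicates 1 and 2. For complexes that are also used outside mitosis the median lay nearer to 0, at 0.25 for 11 cohesin genes and 0.22 for 16 genes of the anaphase-promoting complex, with 0 called by edgeR in either list (1 and 2 before adjustment) and 1 called higher by DESeq2 in each.

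DNA replication genes, which act in S phase, showed the gap within WT but hardly any between WT replicate 2 and KO. The median CPM of 36 such genes was 63.4 in WT replicate 1, 127 in WT replicate 2, 120 in KO replicate 1 and 142 in KO replicate 2. Their KO mean stood at a median of 1.02 times WT replicate 2, beside 1.53 for the 40 G2 and mitosis genes. Of the 36, edgeR called 0 in either direction, while it called 2.39% of all genes higher and 1.56% lower. Before adjustment 1 was lower, Ung, against 1624 of all 12752 genes. DESeq2 also called Ung lower (6.11% of all genes). The median log2 fold change of the 36 was 0.39, with 0.03 without WT replicate 1 and 0.98 without WT replicate 2. The median level of the 40 relative to that of the replication genes was 0.257 in WT replicate 1, 0.755 in WT replicate 2, 1.26 in KO replicate 1 and 1.09 in KO replicate 2. This ratio of medians was thus lowest in WT replicate 1 and above 1 in the KO libraries alone. By summed CPM, the 40 exceeded the replication genes in KO replicate 1 (8543 against 7919) but not in KO replicate 2 (8792 against 9528). The replication genes of highest mean level, Mcm6 and Mcm5, had log2 fold changes of 0.27 ± 0.20 and 0.31 ± 0.19.

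Among these cell cycle lists, only the one of G1 control held genes that edgeR called. Of 12 tested, 2 were called higher, the CDK inhibitors Cdkn1b (52, 37.8, 159.5 and 112 CPM in WT replicates 1 and 2 and KO replicates 1 and 2) and Cdkn2d (9.28, 20.8, 70.8 and 56.8). Their log2 fold changes were 1.59 ± 0.24 (adjusted p = 0.0363) and 2.09 ± 0.36 (adjusted p = 0.0400). Called lower were Ccnd2, a D-type cyclin (-1.11 ± 0.21, adjusted p = 0.0438), and its partner kinase Cdk6 (-0.91 ± 0.15, adjusted p = 0.0400). Over all genes, edgeR called 2.39% higher and 1.56% lower. Ccnd2 no longer passed with WT replicate 1 left out (adjusted p = 0.0614).

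**Figure D5:**
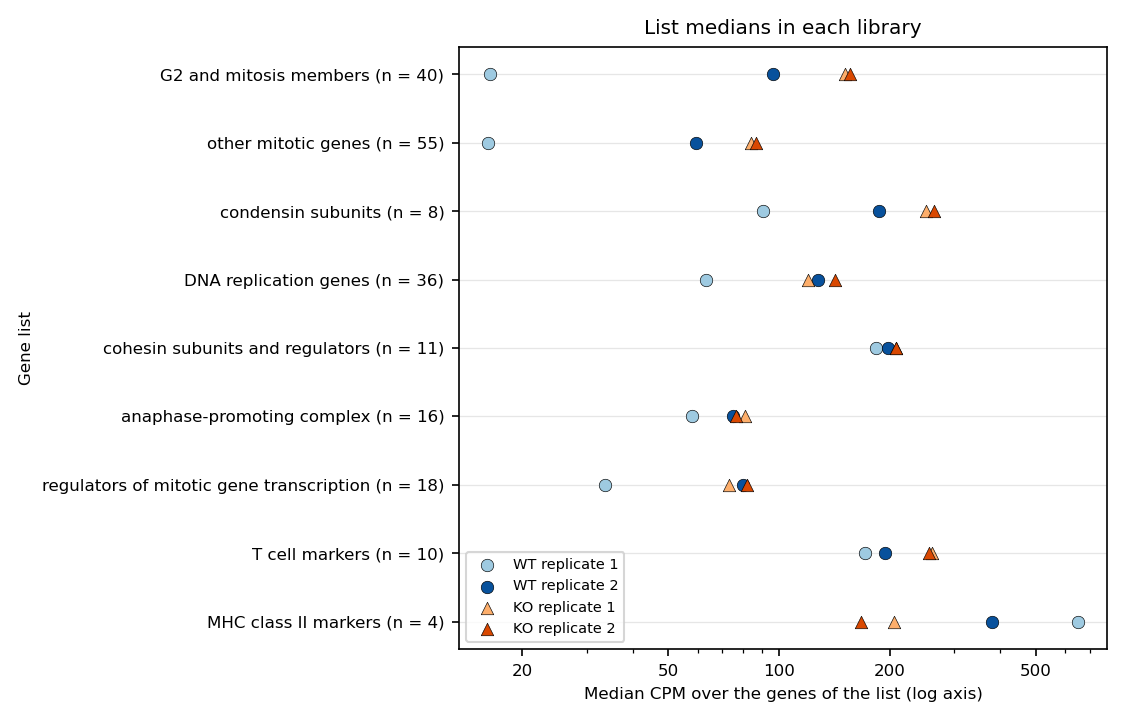
Median CPM (log axis) over the genes of each list in each library, with the number of genes in brackets. Circles are WT replicates 1 and 2 and triangles KO replicates 1 and 2. For the replication genes the KO triangles lie around WT replicate 2, whereas for the 40 G2 and mitosis genes they lie to its right.

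Markers of the cell types in the culture also differed between the libraries, in both directions. The T cell marker sum had the same order of libraries as the 40 genes, but was only 1.14-fold higher in WT replicate 2 than in WT replicate 1. Class II and erythroid sums had the opposite order. Over all genes, edgeR called 2.39% higher and 1.56% lower. The summed CPM of 10 T cell markers was 2360 in WT replicate 1, 2702 in WT replicate 2, 3404 in KO replicate 1 and 3569 in KO replicate 2, and Cd3d, Cd3e and Cd3g were called higher. Of 3 B cell genes named as examples, Cd79b was at 168, 92.3, 48.2 and 39.7 CPM in that order and was called lower, as were the other two, Cd22 and Pax5. The 4 class II genes of antigen-presenting cells summed to 3647, 2160, 1139 and 966 CPM, with 4 of 4 called lower. Erythroid markers summed to 127, 32.3, 6.86 and 3.08 CPM, with 2 of 4 called lower (Hba-a2 and Alas2). Macrophage, dendritic, NK and neutrophil lists summed to at most 39.5 CPM in any library. Several of their genes, Itgam, Ly6g and Siglech among them, were at 0 in at least 1 library.

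Divided by the T cell marker sum, the summed CPM of the 40 genes was 0.447 in WT replicate 1, 2.06 in WT replicate 2, 2.51 in KO replicate 1 and 2.46 in KO replicate 2. The gap within WT remained 4.61-fold on this scale, and the KO mean stood 1.21-fold above WT replicate 2. Divided by the sum of the CD3 chains Cd3d, Cd3e, Cd3g and Cd247, a subset chosen after the values were seen, it was 1.85, 8.69, 8.23 and 8.64. On that scale the KO mean was 0.971 of WT replicate 2, while the gap within WT was 4.69-fold. The CD3 sum itself was 569, 640, 1038 and 1018 CPM in the same order, and Cd3d, Cd3e and Cd3g were called higher. The T cell markers include these CD3 chains, and their sum was likewise 1.29-fold higher in the KO mean than in WT replicate 2. A divisor that is higher in KO lowers the KO ratio by construction, so no conclusion on KO is drawn from either scale. The part of cell composition in the differences of the 40 genes was not tested.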

How the data were processed

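Reads were measured in 4 libraries (2 WT, 2 KO). The authors deposited 1 table of whole-number counts per library for 31748 gene symbols, not normalized. The submitters' processing notes list Subread 2.0.1, featureCounts, DESeq2 1.30.1, R 4.0.4 and the mm10 build. Aligner, annotation release, strand setting and the handling of multi-mapping reads: not given in the sources used here. Hence reads of overlapping genes and near-identical copies could not be told apart.

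KO was compared with WT in edgeR 4.0.16 (R 4.3.3): filterByExpr (minimum count 10, minimum total 15; 12752 genes kept), TMM factors (0.968 to 1.027), quasi-likelihood test over all 4 libraries without covariate, and Benjamini-Hochberg adjustment over all genes, with a call at an adjusted p under 0.05. The SE is the absolute log2 fold change divided by the square root of F. The fit was also run on simulated counts, drawn independently for each gene without a shift of a whole library. These cannot show how the fit handles a WT library that stands apart. Alternatives were upper quartile, RLE and library size scaling, no filter, DESeq2 1.42.0, limma-voom (limma 3.58.1), a replicate block and leaving out each library. Counting intervals cover counting error only. Replicates differed beyond it (chi-square per degree of freedom 40.3 for WT, 16.1 for KO).

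The 40 genes and all lists were chosen with earlier results of these data known. Named genes were those called, the one of highest mean CPM in each role, Mki67, Top2a, Cdk1, Ccnb1, Ccna2, Plk1, Aurkb, Cdc20 and Foxm1; from other lists except the B cell list, called genes or, with none, the 2 of highest mean CPM. Of 205 entries in the other lists, 203 were matched. The B cell list as a whole is not reported here. Coordinates are GENCODE vM21 (GRCm38), counted from 1.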

Additional observations from a re-analysis of the deposited data

How the results depend on the processing

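Of the 440 values of the 40 genes under 11 alternatives, 386 kept their direction and their side of the threshold, 54 kept their direction and were newly called, and none changed direction. The count called higher in KO stayed at 0 with upper quartile, RLE or library size scaling and with DESeq2. It was 5 without a filter on low counts (Ccnb2, Cenpa, Ndc80, Nusap1 and Ect2; 4.02% of all genes higher), 1 with limma-voom (Cenpa; 2.95%) and 2 with a replicate block (Cenpa, adjusted p = 0.0333, and Ect2, 0.0499; 3.83%). Before adjustment, 39 of the 40 were higher at a p under 0.05 without the filter, 39 with limma-voom and 40 with the replicate block. The share of all genes was not counted for these. The median log2 fold changes of the 40 in these fits were 1.36, 1.82 and 1.77. The cause of these differences between the fits was not tested. The labels name no batch, and a replicate block would leave few residual degrees of freedom, so it was run only as an alternative. Same-numbered libraries deviated together only weakly (correlation 0.0486), which does not show that they are unpaired. Leaving out 1 library in turn gave 0 to 40 genes called higher and a median log2 fold change of 0.62 to 3.06, against 1.37 with all 4. The lowest median came without WT replicate 1, the highest without WT replicate 2, and both came from fits with 3 libraries whose spread is that of the pair left whole. With 2 libraries per group, the wide spread of the WT pair limits which changes pass the test. Counting error was small beside that spread: for the gene of fewest counts, Cdc25c, the 5.31-fold gap within WT had a 95% interval of 3.89 to 7.38.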
